A study of Mus musculus with 3 samples.

Results

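The 51 genes described here are the G2/M and mitosis genes of the mouse, taken by symbol from a fixed list and all found among the 31053 genes of the table. They act in the last part of the cell cycle, when a cell that has copied its DNA builds a spindle, separates its chromosomes and divides. The genes were read in T cells sorted from subcutaneous tumours of C57BL/6 mice on day 14. One group came from B16-Ova, a melanoma line, and the other from MC38-Ova, a colon carcinoma line, and both lines carry ovalbumin as a model antigen. All cells were T cells by their sort (TCRB+, CD3+, CD90.2+, CD11b-), all were tagged with an antibody to PD-1, an antibody to Tim-3 and biotinylated L-Pha, a lectin that binds branched N-glycans, and all were run in 1 capture of the 10x Genomics 5′ assay. A hashtag oligonucleotide marked the tumour of each cell. The growth text of the labels names MC38-Ova alone, while the tumour type names both lines. The number of mice behind a hashtag is not given, so each tumour is 1 pool of cells with no replicate, and differences between tumours are given with counting intervals and no test.

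Genes of this set are silent or low in resting cells, rise from late S phase and peak in mitosis. Cyclin B with Cdk1 starts mitosis, the Aurora and Polo kinases build the spindle, the checkpoint holds chromosome separation until every kinetochore is attached, and the anaphase-promoting complex then destroys cyclin B and the locks on the chromosomes. Outside division the MuvB core with the DREAM complex holds many of these promoters off through a short element called the CHR, and in dividing cells MuvB with B-Myb and FoxM1 turns them on, often beside CCAAT boxes that bind NF-Y. Activated T cells divide fast, and expression of Mki67 and its partners is the usual sign of division in tumour-infiltrating T cells.

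The promoters carry these elements, and 8 are shown, of genes with levels given below and with different numbers of these elements. The sequences are RefSeq's on GRCm38.p6, 5′ to 3′ on the strand of the gene, from 110 bases before the start of transcription to 25 bases after it. Capitals mark TTTGAA, the letters of the CHR searched for, and CCAAT, each on either strand (TTCAAA and ATTGG when reversed). The windows are chr9:70421530-70421664 for Ccnb2, chr4:118437319-118437453 for Cdc20, chr10:69352888-69353022 for Cdk1, chr11:99024165-99024299 for Top2a and chr11:40733413-40733547 for Hmmr, all on the minus strand. Those of Plk1 (chr7:122159325-122159459), Cenpa (chr5:30666776-30666910) and Cks2 (chr13:51645122-51645256) lie on the plus strand.
Ccnb2: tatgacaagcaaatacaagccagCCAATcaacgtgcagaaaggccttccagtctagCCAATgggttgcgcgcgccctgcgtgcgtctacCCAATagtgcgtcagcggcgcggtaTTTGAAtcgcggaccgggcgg
Cdc20: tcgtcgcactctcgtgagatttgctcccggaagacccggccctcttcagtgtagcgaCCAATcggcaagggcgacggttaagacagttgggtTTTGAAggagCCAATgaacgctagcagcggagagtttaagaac
Cdk1: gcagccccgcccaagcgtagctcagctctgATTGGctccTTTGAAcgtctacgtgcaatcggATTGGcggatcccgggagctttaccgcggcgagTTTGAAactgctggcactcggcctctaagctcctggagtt
Plk1: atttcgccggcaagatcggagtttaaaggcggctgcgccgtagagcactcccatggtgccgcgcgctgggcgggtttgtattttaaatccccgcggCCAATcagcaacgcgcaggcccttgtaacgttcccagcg
Top2a: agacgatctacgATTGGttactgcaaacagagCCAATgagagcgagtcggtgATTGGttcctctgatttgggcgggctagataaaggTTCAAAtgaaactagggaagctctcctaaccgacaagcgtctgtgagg
Hmmr: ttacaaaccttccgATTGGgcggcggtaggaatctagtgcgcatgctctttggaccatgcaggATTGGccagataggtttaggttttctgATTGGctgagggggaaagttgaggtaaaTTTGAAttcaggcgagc
Cenpa: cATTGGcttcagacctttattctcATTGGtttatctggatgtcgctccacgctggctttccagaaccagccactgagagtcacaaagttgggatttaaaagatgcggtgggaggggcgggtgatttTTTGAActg
Cks2: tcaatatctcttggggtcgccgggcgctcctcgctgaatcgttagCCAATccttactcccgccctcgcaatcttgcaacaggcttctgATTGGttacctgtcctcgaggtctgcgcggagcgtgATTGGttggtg
Ccnb2 held 3 CCAAT boxes and 1 TTTGAA in this window, and Hmmr and Top2a held the same numbers. Cks2 held 3 CCAAT boxes and no TTTGAA, and Plk1 had its TTTGAA further down, from base 31 to base 36 after the start. Of the 51 members, 44 had a promoter in the RefSeq table, which runs from 250 bases before the start to 50 after it. TTTGAA stood in 35 of these 44 (79.5%), against 20.2% of all 27025 genes with a promoter there. CCAAT stood in 36 (81.8%), against 41.1% of all genes, and both stood in 31 (70.5%), against 7.97%. Among 29 promoters of S-phase genes, 3 held TTTGAA (10.3%) and 17 held CCAAT (58.6%). The 2 motifs overlapped in 1 member promoter. These are matches of letters and say nothing of binding.

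The table held 19912 barcodes, of which 18429 had at least 500 genes and at most 10% mitochondrial counts, and 14992 of those carried 1 hashtag clearly. The 4 classes held 8797 cells. CD8 cells (Cd8a or Cd8b1, no Cd4, no Foxp3) numbered 1792 in B16-Ova and 2544 in MC38-Ova, regulatory T cells (Treg, Foxp3) 777 and 960, other CD4 cells (Cd4 without Foxp3) 753 and 736, and innate-like T cells (Cd3e with Fcer1g or Tyrobp, no Cd4, no Foxp3) 455 and 780. Each sum of cells of 1 class and tumour held 2592067 to 20937848 RNA UMIs (unique molecular identifiers, which count molecules), with 4107 to 7358 in the median cell. Levels are CPM, the UMIs of a gene scaled to a common total of RNA UMIs in each sum. Cd3e stood at 856 to 1284 CPM in all 8 sums, and the genes that set the classes were at 0 where the rule required it. Melanoma markers (5 genes) summed to 30.0 to 449 CPM, macrophage markers (5 genes) to 20.1 to 183 and fibroblast markers (4 genes) to 1.93 to 239. Melanoma markers were higher in B16-Ova in CD8, CD4 and innate-like cells but higher in MC38-Ova in Treg (188 against 33.6 CPM).

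Most members kept to a small group of cells. A separate list of 47 mitosis genes that are not members was used to find cells likely to be dividing, after thinning each cell to 3000 UMIs. Of 7581 cells 1168 had at least 3 of the 47, and these cells held 22.8% of the RNA. They held a median of 78.2% of the UMIs of the 43 core members, which are the members that resting cells are not known to make. Nusap1, a microtubule bundler of the spindle, was the most confined, at 74.96 CPM in these cells and 2.93 CPM in the rest, a ratio of 25.6. Nuf2, a kinetochore protein (23.6), Ccna2, which encodes cyclin A2 (23.4), Kif2c, a kinesin that takes microtubules apart (22.7), the checkpoint kinase Ttk (21.8) and Hmmr, which binds spindle microtubules (21.2), came next. At the other end of the core stood Cks2, a small partner of Cdk1, with a ratio of 2.71, and Cenpa, the histone of the centromere, with 2.74. Both were well above 0 in the cells with fewer than 3 of the 47 genes, at 72.0 and 110 CPM. Their presence thus marked the 1168 cells less sharply than that of the other core members. Racgap1, part of the central spindle, followed with 4.11 and the kinesin Kif23 with 4.79.

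The 8 broad members, kept apart because cells outside division make them too, ran from 1.61 to 12.8. Bub3 (1.61), Smc4 (1.94), Tubb4b (2.25) and Ckap5 (2.26) were the flattest of all members. Kif22 (12.8), Stmn1 (9.28) and Cks1b (8.28) lay among the core members instead. Hmgb2, a chromatin protein, had a UMI in 72.1% of thinned class cells but still stood 3.66-fold higher in dividing cells.

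**Figure D1:**
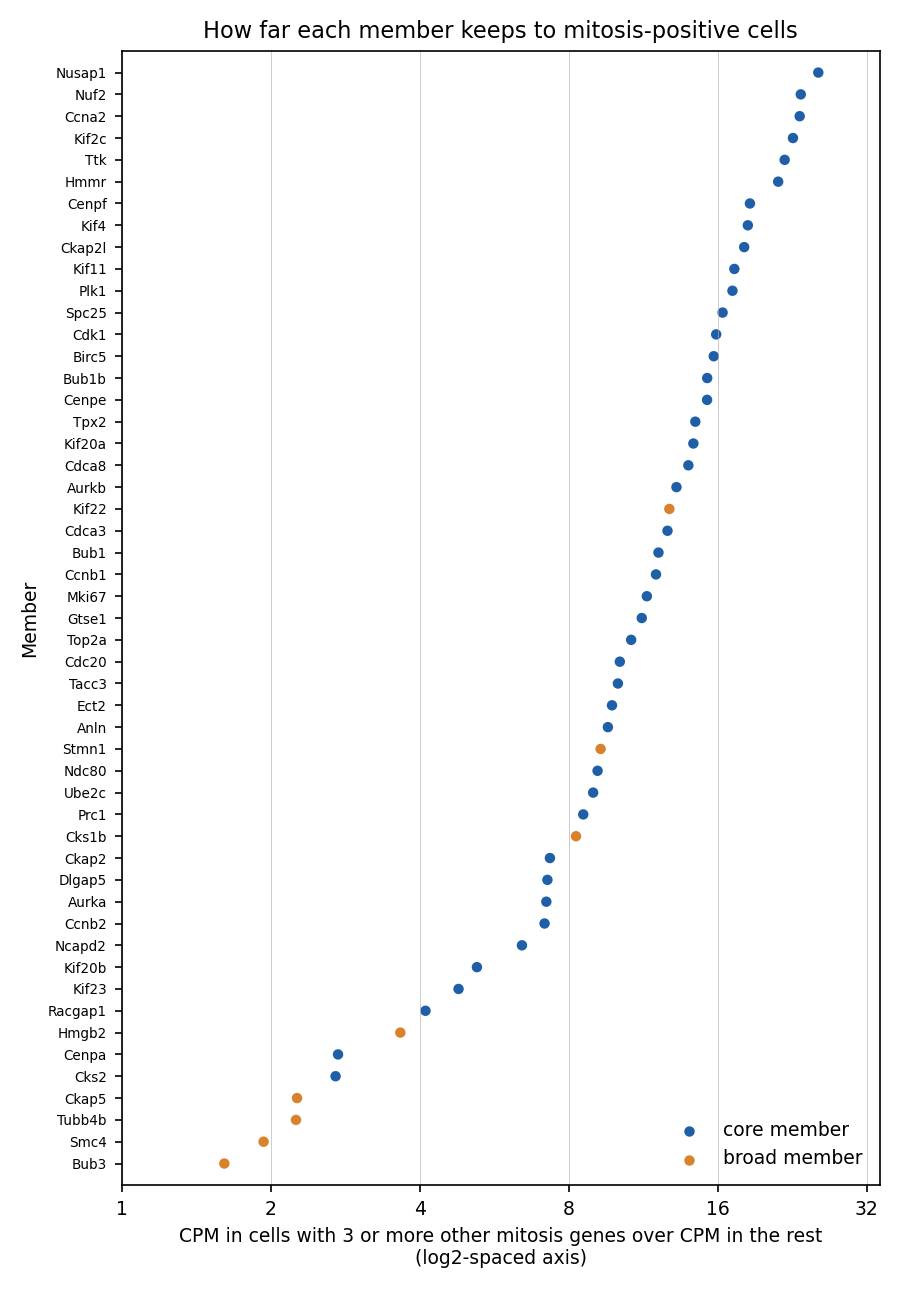
For each of the 51 members (y axis), the CPM in cells with 3 or more of 47 other mitosis genes divided by the CPM in the remaining cells of the 4 classes (x axis, log2-spaced). Nusap1 sits at the top with 25.6 and Bub3 at the bottom with 1.61, and Kif22, Stmn1 and Cks1b lie among the core members although they were listed as broad.

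A cell was called mitosis-positive when it held at least 5 of the 43 core members after thinning to 3000 UMIs, and cells under 3000 UMIs were left out (35 to 235 per class and tumour). By this measure CD8 cells of B16-Ova were the most often positive and innate-like cells of B16-Ova the least. In CD8 cells 223 of 1667 were positive in B16-Ova (13.4%, exact 95% interval 11.8 to 15.1) and 205 of 2309 in MC38-Ova (8.88%, 7.75 to 10.1). Treg gave 73 of 630 (11.6%, 9.19 to 14.3) and 65 of 759 (8.56%, 6.67 to 10.8). CD4 cells gave 24 of 537 (4.47%, 2.88 to 6.58) and 29 of 540 (5.37%, 3.63 to 7.62), and innate-like cells 8 of 420 (1.90%, 0.826 to 3.72) and 34 of 719 (4.73%, 3.30 to 6.55). The intervals of CD8 cells and Treg overlapped within each tumour, and those of CD8 and CD4 cells did not, before cells were split by RNA content. These intervals cover counting error only. Before thinning the shares were 25.9% and 18.3% in CD8 cells and 3.30% and 8.59% in innate-like cells, B16-Ova first.

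No cell type known to lack these genes could be set beside the shares. Cells with markers of resting T cells, with median RNA of 9495 and 10386 UMIs before thinning, were positive in 11.9% of B16-Ova and 10.8% of MC38-Ova cells, and 80.7% and 82.3% of those positive cells also held S-phase genes. B16-Ova CD8 cells lay above the resting-marker share of their tumour with overlapping intervals (11.8 to 15.1 against 10.0 to 14.1). The other 7 sums lay below the resting-marker share of their own tumour. A cell with resting markers could also belong to a class, so the groups may share cells and their intervals are not independent. These groups were not matched on RNA content, and CD8 cells had lower medians of 7749 and 7481 UMIs, B16-Ova first. Positive resting-marker cells had medians of 29550 and 20530 UMIs, against 15660 and 11160 in positive CD8 cells. Whether the shares differ at equal RNA content was not tested. The part of free RNA in the shares was not tested.

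Positive cells carried more RNA. In CD8 cells of B16-Ova their median was 15660 UMIs before thinning against 7214 in the others, and in MC38-Ova 11160 against 7239. The median of their own hashtag was 500 UMIs in positive CD8 cells of B16-Ova, against 588 in other cells of the same decile of RNA content. In every class and tumour except innate-like cells of B16-Ova, where 4 of 8 did, at most 41.3% of positive cells had more of their hashtag than the median of such matched cells. Doublets of cells from different tumours were removed by the hashtags, and those within a tumour were not called.

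The share of positive cells rose steeply with RNA content, and the 2 tumours differed in CD8 cells at the top of that range. With 3000 to 6000 UMIs, 3.31% of B16-Ova and 3.07% of MC38-Ova CD8 cells were positive, and with 6000 to 12000 UMIs 7.41% and 8.18%. From 12000 UMIs upward the shares were 34.4% (30.0 to 39.0, 442 cells) and 21.0% (17.3 to 25.1, 438 cells), with intervals that did not overlap. Treg followed the same order at the top, with 35.4% of 127 and 21.0% of 119 cells, but the intervals overlapped (27.2 to 44.4 and 14.1 to 29.4). In innate-like cells the upper stratum held 15 and 48 cells, with 4 and 19 positive. CD4 cells gave 1.67%, 8% and 22.2% over the 3 strata in B16-Ova and 3.06%, 4.93% and 23.3% in MC38-Ova. Within every stratum of either tumour the intervals of CD8 and CD4 cells overlapped, and CD4 cells had a lower median RNA content over all cells.

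**Figure D2:**
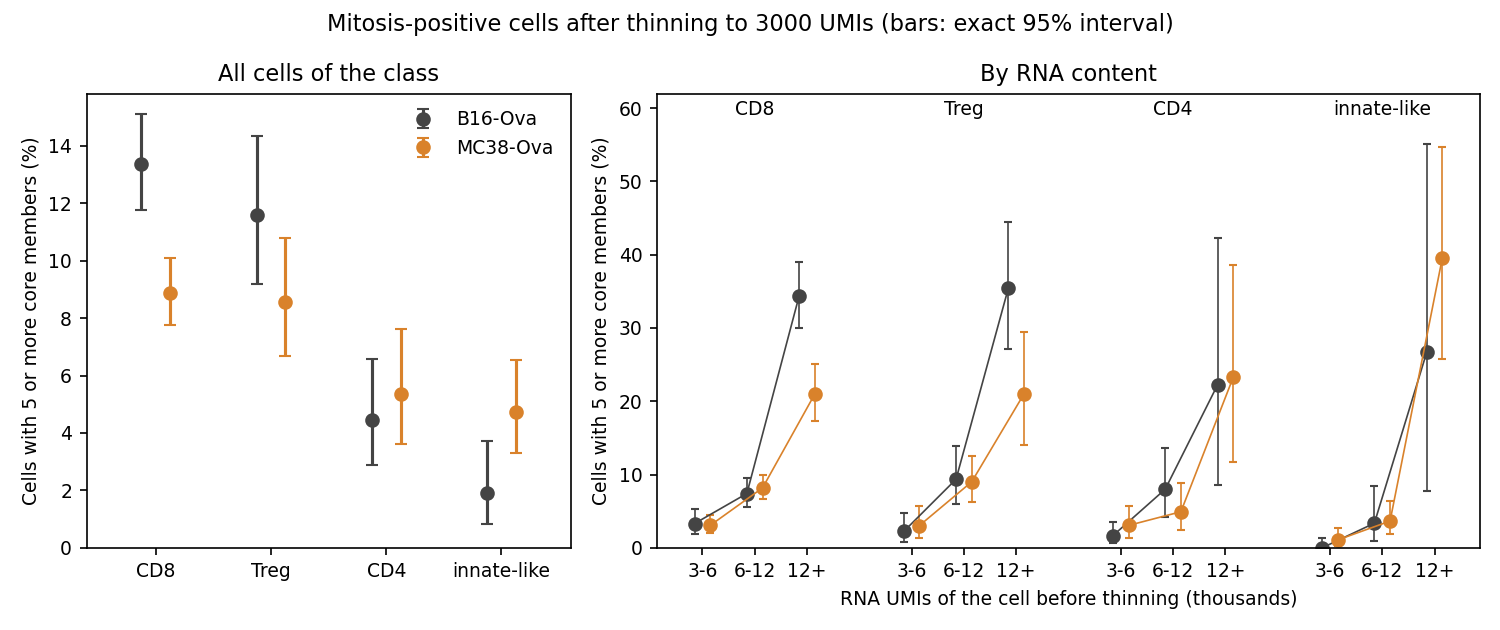
Left, the percentage of cells with at least 5 of 43 core members after thinning to 3000 UMIs, for 4 T cell classes and 2 tumours, with exact 95% intervals. Right, the same split by the RNA UMIs of the cell before thinning (x axis): the tumours lie together below 12000 UMIs in CD8 cells and apart above, at 34.4% and 21.0%.

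Most positive cells also held transcripts of S-phase genes. Of the positive CD8 cells, 86.5% in B16-Ova and 71.7% in MC38-Ova held at least 5 of 35 S-phase genes, and the values in the other sums were 64.6% to 85.3%. Cells with at least 5 S-phase genes but fewer than 5 core members were more numerous than positive cells with fewer than 5 S-phase genes in each sum, for example 265 against 30 in B16-Ova CD8 cells and 303 against 58 in MC38-Ova. The S-phase list was the more abundant, at 2704 against 1599 CPM for the core in B16-Ova CD8 cells. Over all class cells 19.25% passed its cut of 5, against 8.72% for the core, so the 2 cuts are not alike. The most core members found in 1 thinned cell was 28.

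The levels of the members in the 8 sums are given below by role, with CD8, Treg, CD4 and innate-like cells in that order and B16-Ova before MC38-Ova in each. Because a sum holds dividing and resting cells together, more dividing cells and more RNA of a gene per dividing cell cannot be told apart in it.

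Among the cyclins, kinases and their partners, Ccnb2, which encodes cyclin B2, stood at 59.3 and 38.3 CPM, 52.2 and 50.9, 28.1 and 29.8, and 17.8 and 25.97. Cdk1, the kinase of mitotic entry, stood at 40.0 and 22.8, 34.8 and 27.3, 14.6 and 18.1, and 13.5 and 18.1. Both were highest in B16-Ova CD8 cells and lowest in B16-Ova innate-like cells. Ccna2 gave 59.1 and 30.7, 49.1 and 29.2, 25.9 and 19.5, and 11.2 and 27.7, and Cks1b 91.1 and 50.05, 50.3 and 44.1, 31.7 and 38.1, and 25.8 and 43.7. Cks2 broke the order of its role: it stood at 101 and 95.8, 126 and 92.7, 129 and 116, and 57.5 and 70.6 CPM, so that CD4 cells were as high as CD8 cells or higher. Plk1, the Polo kinase, was low throughout, at 16.02 and 10.3, 12.01 and 10.8, 5.79 and 5.002, and 6.17 and 8.85 CPM.

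The 3 subunits of the chromosomal passenger complex, which corrects wrong attachments, were also lowest in B16-Ova innate-like cells. Birc5, which encodes survivin, stood at 102 and 65.4 CPM, 77.4 and 76.2, 42.5 and 43.1, and 24.7 and 51.6. Cdca8, or borealin, ran from 11.2 CPM in B16-Ova innate-like cells to 51.3 in B16-Ova CD8 cells, and the kinase Aurkb from 6.56 to 25.6, its highest value in B16-Ova Treg. The checkpoint genes were less abundant, and Ttk ran from 0.386 to 5.92 CPM and Bub1b from 3.47 to 14.7. Bub3, a broad member, ran only from 84.1 to 114 CPM.

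At the centromere and kinetochore, Cenpa stood at 184 and 147 CPM, 190 and 184, 91.3 and 110, and 70.6 and 96.4, which put both Treg sums level with B16-Ova CD8 cells. Cenpf ran from 6.94 to 28.7 CPM and Cenpe from 5.40 to 26.3. Ube2c, the enzyme that feeds the anaphase-promoting complex, gave 93.0 and 65.7, 88.6 and 83.7, 35.3 and 34.1, and 15.8 and 61.0, the widest gap between tumours in innate-like cells. Cdc20, its activator, gave 20.6 and 13.4, 16.5 and 13.4, 9.10 and 10.5, and 5.40 and 11.02.

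Of the spindle proteins and kinesins, Stmn1, which destabilizes microtubules, stood at 308 and 195 CPM, 224 and 164, 113 and 121, and 91.0 and 171. Tubb4b, a tubulin, was nearly flat, from 170 to 214 CPM. Tpx2 ran from 5.79 in B16-Ova innate-like cells to 39.9 CPM in B16-Ova CD8 cells, Hmmr from 2.70 to 18.2, Tacc3 from 11.6 to 34.7, and the spindle motor Kif11 from 8.87 to 31.3. Kif23 did not follow CD8 cells and was highest in MC38-Ova Treg and CD4 cells, at 28.6 and 27.6 CPM. Kif20b was highest in B16-Ova Treg (30.6 CPM).

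In cytokinesis, Racgap1 stood at 54.0 and 42.8 CPM, 41.4 and 29.2, 27.3 and 25.01, and 33.6 and 33.2, so that innate-like cells were above CD4 cells. Prc1 ran from 9.26 to 29.8 CPM. Of the genes of chromosome structure, Top2a, the topoisomerase that untangles sister chromosomes, stood at 151 and 83.4, 130.5 and 95.7, 84.9 and 77.2, and 37.8 and 87.6. Mki67, the source of the Ki-67 antigen, stood at 103 and 64.6, 124 and 83.7, 78.8 and 55.5, and 20.4 and 51.6, and was highest in Treg. Hmgb2 ran from 436 to 926 CPM and Smc4, a condensin subunit, from 125 to 185.

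**Figure D3:**
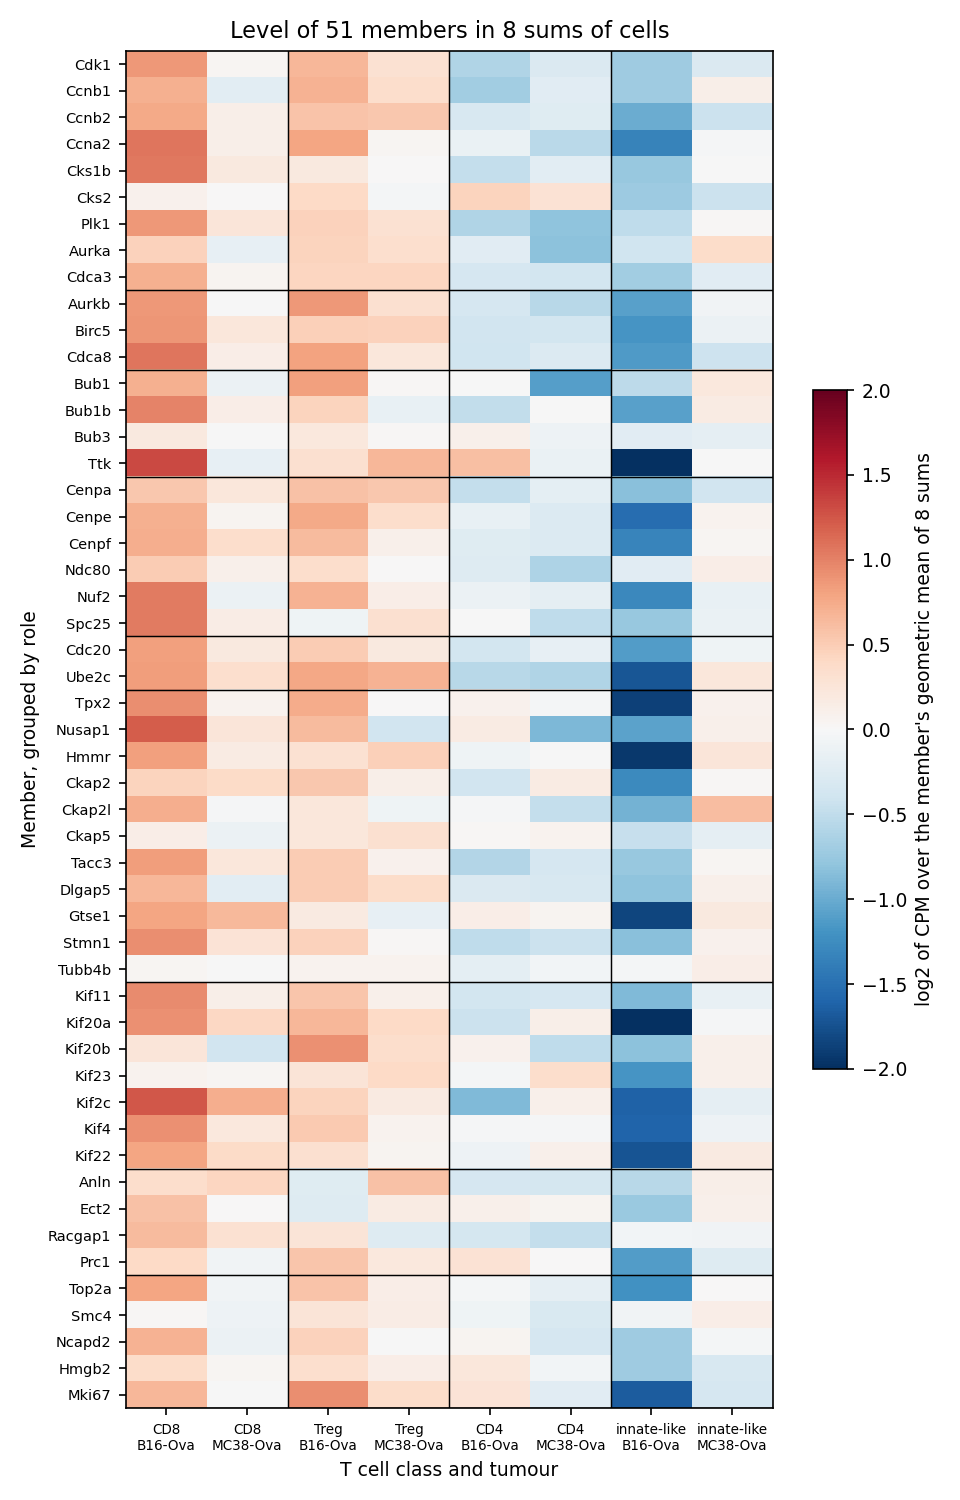
Rows are the 51 members grouped by role, columns the 8 sums of cells, and the colour is the log2 of the CPM over the geometric mean of that member's 8 values, limited to the range -2 to 2. The B16-Ova CD8 column is red and the B16-Ova innate-like column blue for most members, while Bub3, Tubb4b and Smc4 are pale across the row.

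CD8 cells had more of these transcripts than CD4 cells, member by member, but few members passed the test. The classes were compared on the 8 sums with edgeR's quasi-likelihood test, with the tumour as a block and 3 residual degrees of freedom. In CD8 cells 50 of 51 members were above CD4 cells, with a median log2 difference of 0.83 against -0.01 over all 11188 genes tested. Of the members 3 rose at an adjusted p under 0.05 and none fell, where 6.88% of all genes passed in either direction, 3.3% upward and 3.58% downward. They were Plk1 (log2 difference 1.39 ± 0.28 SE, adjusted p = 0.0322), Racgap1 (1.00 ± 0.15, adjusted p = 0.0116) and Cenpa (0.84 ± 0.17, adjusted p = 0.0327). Each was higher in both tumours, for example Plk1 with 16.02 against 5.79 CPM in B16-Ova and, in MC38-Ova, 10.3 against 5.002. Cks2 was the 1 member below CD4 cells, with a log2 difference of -0.20 ± 0.15 and an adjusted p of 0.448 by the same test.

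The gap between CD8 and CD4 cells was wider in B16-Ova. The core members summed to 1599 against 903 CPM there, a ratio of 1.77, and to 1064 against 853 CPM in MC38-Ova, a ratio of 1.25. Among the roles, the 3 passenger complex genes had a median log2 difference of 1.07 and the 2 genes of the anaphase-promoting complex 1.11, but none of these 5 passed. The Plk1 call was lost with stricter hashtags (1.27, edgeR adjusted p = 0.195) and in cells thinned to 3000 UMIs (1.11, edgeR adjusted p = 0.248), while Racgap1 and Cenpa passed in all 6 alternatives. The count of called members rested on the settings. Without the RNA-richest decile of cells 20 members rose, among them Cdk1, Ccnb2, Birc5 and Ube2c, and without a filter on low counts 20 rose as well, while DESeq2 called 5. Of all genes 15.7%, 7.34% and 6.63% were called under these settings, in either direction.

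Treg also lay above CD4 cells. Against them 48 of 51 were higher, with a median of 0.55 against 0.00 over all genes, and 1 rose and none fell, where 1.98% of all genes rose and 1.37% fell (3.35% together). That was Cenpa (0.88 ± 0.17, edgeR adjusted p = 0.0383), at 190 against 91.3 CPM in B16-Ova and, in MC38-Ova, 184 against 110. Ube2c had the highest estimate of the role that ends mitosis, with 88.6 against 35.3 and 83.7 against 34.1 CPM.

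Over all cells, innate-like cells had no common direction against CD4 cells, and the tumours went opposite ways. The median log2 difference was 0.03, with 27 of 51 members above 0. Within B16-Ova 5 of 51 were above CD4 cells and the core sum was 496 against 903 CPM, while within MC38-Ova 36 of 51 were above and the sum was 912 against 853 CPM. Cks2 fell (-0.79 ± 0.16, edgeR adjusted p = 0.0215), the 1 member called, where 5.12% of all genes fell and 4.35% rose (9.47% together). It was lower in both tumours, at 57.5 against 129 and 70.6 against 116 CPM, and was not called with stricter hashtags. Most members lay lower in 2 alternatives. Without the RNA-richest decile of cells the median was -0.40, with 10 of 51 above 0. There 7 members fell and 1 rose, where 15.6% of all genes were called. In cells thinned to 3000 UMIs it was -0.27, with 13 of 46 above 0, and 4 fell, where 13% of all genes were called.

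Between the tumours, CD8 cells of MC38-Ova held less of the whole set. A member was counted when its CPM differed by more than 1.5-fold and the exact 95% interval of the ratio excluded 1, among genes with at least 100 UMIs. In CD8 cells 32 of 51 members were lower in MC38-Ova and none higher, where 5.7% of all 9758 genes were lower and 5.47% higher. The median ratio of MC38-Ova to B16-Ova was 0.644 over the members and 0.9995 over all genes, and 50 of 51 members were below 1. Ttk had the lowest ratio (0.355, interval 0.243 to 0.510, on 44 and 102 UMIs), and Nuf2 (0.450), Nusap1 (0.510), Ccna2 (0.520) and Cdca8 (0.524) followed. Anln, a scaffold of the cleavage furrow, was the 1 member above 1 (1.05).

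The roles shared this order to different degrees. All 3 passenger complex genes, 8 of 9 of the cyclin and kinase group and 7 of 11 spindle proteins were past the limit, against 1 of 4 cytokinesis genes and 3 of 7 kinesins. Among members that did not pass were Cks2 (0.947), Tubb4b (0.968), Kif23 (0.980) and Smc4 (0.914). The core members together gave a ratio of 0.666 (0.654 to 0.678). After thinning every cell to 3000 UMIs the ratio was 0.776 (0.748 to 0.805) and 12 of 38 members were past the limit. Without the RNA-richest decile of cells it was 0.728 and 24 of 49 were. Of all genes 2.72% and 3.81% were lower in MC38-Ova under these settings.

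**Figure D4:**
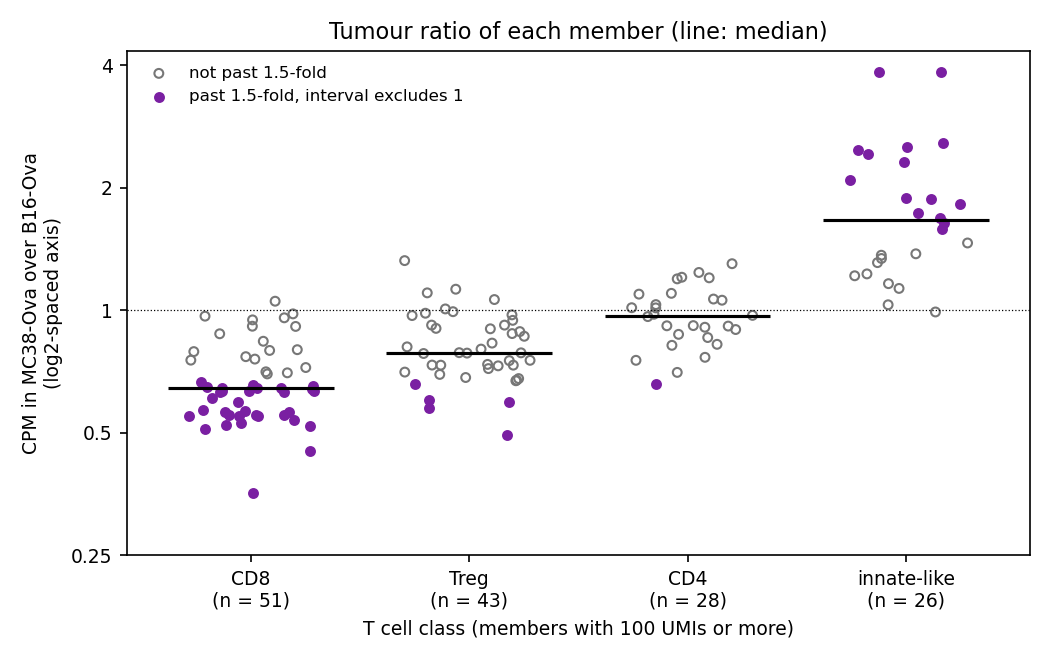
Each point is a member with at least 100 UMIs in that class, and the y axis (log2-spaced) is its CPM in MC38-Ova over B16-Ova. Filled points are past 1.5-fold with an interval that excludes 1, and lines are medians: 0.644 in CD8, 0.786 in Treg, 0.969 in CD4 and 1.66 in innate-like cells.

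Treg differed less and CD4 cells hardly. In Treg 5 of 43 members were lower in MC38-Ova and none higher, where 3.59% of all genes were lower and 4.94% higher, with a median ratio of 0.786. They were Nusap1 (0.493), Bub1 (0.576), Ccna2 (0.595), Tpx2 (0.603) and Bub1b (0.659). In CD4 cells 1 of 28 members, Kif20b (0.658), was lower and none higher, where 2.72% of all genes were lower and 3.66% higher. The median ratio there was 0.969, and the core members together gave 0.945 (0.901 to 0.991).

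Innate-like cells went the other way. In them 15 of 26 members were higher in MC38-Ova and none lower, where 4.09% of all genes were higher and 1.76% lower, and the median ratio was 1.66. Ube2c had the highest ratio (3.86, interval 2.78 to 5.48), from 41 UMIs in B16-Ova and 310 in MC38-Ova. Tpx2, which activates Aurora A on the spindle, followed (3.84, 2.23 to 7.09), then Cenpf (2.58), Mki67 (2.52) and Ccna2 (2.48). Racgap1 was the 1 member below 1 (0.991). The core members together rose from 496 to 912 CPM, a ratio of 1.84 (1.73 to 1.96).

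Few cells stand behind that ratio. In B16-Ova 8 innate-like cells were positive, and 2 of these 8 held at least 5 UMIs of melanoma, macrophage or fibroblast markers, against 0 of 34 in MC38-Ova. Melanoma markers summed to 449 CPM in innate-like cells of B16-Ova and 35.2 in those of MC38-Ova. Within B16-Ova innate-like cells they summed to 149 CPM in positive cells and 476 CPM in the others. With all cells that held such markers left out, an alternative chosen after the data were seen, the ratio was 2.26 and 18 of 26 members were past the limit. Without the RNA-richest decile of cells it was 1.24 and 3 of 11 members were past it, and after thinning it was 1.45 with 2 of 9. Of all genes 3.78%, 2.99% and 3.15% were higher in MC38-Ova under these settings, in that order. In CD8 cells 4 of 223 positive cells of B16-Ova and 6 of 205 of MC38-Ova held such markers, and the core ratio without them was 0.648. In CD4 cells 1 of 24 and 2 of 29 did, with a core ratio of 0.949 without them. Melanoma markers summed to 3776 CPM in positive CD4 cells of B16-Ova and 27.7 in the others. In MC38-Ova fibroblast markers summed to 295 and 47.7 CPM in CD4 cells, and to 161 and 5.08 in CD8 cells. In Treg of both tumours melanoma and fibroblast markers were lower in positive cells.

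The share of positive cells was lower or higher along with the sums in CD8, Treg and innate-like cells, while in CD4 cells the core sum was lower and the share higher in MC38-Ova. It was 4.50 percentage points lower in MC38-Ova in CD8 cells (difference -4.50, 95% interval -6.56 to -2.48) and 2.82 points higher in innate-like cells (0.513 to 4.94). The intervals in Treg (-6.37 to 0.242) and CD4 cells (-1.84 to 3.66) included 0. In innate-like cells the interval also included 0 at a minimum of 3 or 8 core members, at 2000 or 5000 UMIs and with stricter hashtags.

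Genes around the set were followed through 4 further lists. The S-phase genes, which copy DNA, moved with the members: in CD8 cells 25 of 35 were past the limit and lower in MC38-Ova, none was higher, and their summed ratio was 0.624, with Clspn (0.424), Tk1 (0.481) and Pclaf (0.485) lowest. In Treg 17 of 34 S-phase genes were lower. Innate-like cells gave 6 of 30 S-phase genes higher and a summed ratio of 1.19. Of the 47 other mitosis genes, 44 had enough UMIs in CD8 cells, 26 were lower in MC38-Ova and 1, Cdc25b, was higher (1.57). Cdc25b encodes a phosphatase that switches on Cdk1. Of all genes 5.7% were lower in MC38-Ova and 5.47% higher in CD8 cells. In Treg 3.59% of all genes were lower, and in innate-like cells 4.09% were higher.

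The regulators of the set moved in part. Of 18 genes of MuvB, its partners and the E2F family, 5 were lower in MC38-Ova CD8 cells: E2f8 (0.496), Mybl2, which encodes B-Myb (0.520), E2f7 (0.598), Tfdp1 (0.611) and E2f1 (0.654). The most abundant of the list, Rbbp4, gave 0.850. In CD8 cells 5.7% of all genes were lower in MC38-Ova and 5.47% higher. Among 16 brakes of the cell cycle, 14 were measured in CD8 cells and went both ways. Cdkn1a, which encodes p21, was 1.92 times as high in MC38-Ova (157 against 82.0 CPM) and Gadd45b 1.66 times, while Cdkn2a (0.258), Fbxo5 (0.507), Cdkn2c (0.572) and Klf2 (0.633) were lower. Of these, Fbxo5 was itself higher in mitosis-positive cells, with a ratio of 22.5 to the other class cells. Cdkn1a was also past the limit and higher in MC38-Ova in CD4 (1.54) and innate-like cells (1.72), and Klf2 was lower in both (0.449 and 0.314).

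Between classes, by the same edgeR test, 5 of 35 S-phase genes rose in CD8 against CD4 cells (Dut, Mcm3, Mcm5, Mcm6 and Rfc4) and all 35 had a log2 difference above 0. Of 45 other mitosis genes tested, 4 rose: Cep55, Spag5, Cenpw and Smc2. Of all genes 3.3% rose and 3.58% fell in this comparison. Among the 16 brakes, 4 fell: Cdkn1a (-0.85 ± 0.15, adjusted p = 0.0208), Gadd45b (-0.85 ± 0.20), Gadd45a (-0.69 ± 0.15) and Cdkn1b (-0.65 ± 0.12). No gene of the MuvB list of 18 passed in CD8 cells. There 3 had an unadjusted p under 0.05 and DESeq2 called 1, where it called 6.63% of all genes.

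The lectin and antibody tags were compared with the members next, within deciles of RNA content. Within each class and tumour, cells were cut into deciles by RNA content, and the top and bottom quartile of the tag in each decile were summed. Median RNA was close between the groups, but L-Pha high groups held more RNA in total in every class and tumour. In MC38-Ova Treg the totals were 2004409 against 1564515 UMIs, on 240 cells each. In MC38-Ova innate-like cells they were 1406754 against 1254242, on 201 cells each. The part of this remaining difference in the results was not tested. In CD8 cells the median L-Pha tag was 999 UMIs in the high and 212 in the low group of B16-Ova, with median RNA of 7377 and 7337 UMIs. The core members summed to 1842 against 1330 CPM in B16-Ova and, in MC38-Ova, 1263 against 1024. By edgeR none of 48 members passed, where 0.198% of all 9585 genes did. The median log2 difference was 0.30 against 0.01 over all genes, 41 of 48 members were above 0, 5 had an unadjusted p under 0.05, and DESeq2 called none.

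In Treg and CD4 cells the members lay lower in L-Pha high cells, and in innate-like cells higher, again with none passing. The medians were -0.45 in Treg (7 of 48 above 0) and -0.53 in CD4 cells (6 of 48 above 0), where 0.0835% and 0.0939% of all genes passed. Unadjusted p-values under 0.05 numbered 8 and 11, and DESeq2 called 0 and 1, where it called 0.0939% and 0.24% of all genes. In innate-like cells the median was 0.90, 46 of 48 were above 0, 24 had an unadjusted p under 0.05 and DESeq2 called 1. There 0.104% of all genes passed by edgeR and 0.167% by DESeq2. The core members there summed to 672 against 402 CPM in B16-Ova and 1525 against 556 CPM in MC38-Ova. Top2a had a log2 difference of 1.31 ± 0.26 and an edgeR adjusted p of 0.129. The positive cells behind these sums were 3 of 111 against 1 of 112 in B16-Ova and 12 of 183 against 7 of 184 in MC38-Ova. In Treg they were 10 of 161 against 19 of 162 and 13 of 192 against 16 of 188. The CD4 shares went against the CD4 sums, with 9 of 136 against 8 of 139 and 10 of 139 against 9 of 140. Without the RNA-richest decile the median was -0.96 in Treg (2 of 40 above 0) and -0.03 in CD4 cells (18 of 40). In innate-like cells it was 0.24 (24 of 40).

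No difference of the L-Pha effect between classes passed for any member in 6 contrasts of 48 members, with lowest adjusted p-values of 0.229 to 0.948. Between 3 and 26 members per contrast had an unadjusted p under 0.05. Counts at an unadjusted p, here and elsewhere in the text, are given without the share of all genes and are not calls.

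Without matching on RNA more members passed in CD8 cells. With quartiles taken over the whole class and tumour, 21 of 49 members rose in L-Pha high cells, Ccnb2, Cdk1, Plk1, the condensin subunit Ncapd2 and Mki67 among them, and none fell, where 5.4% of all genes passed. The high and low groups then differed in median RNA, at 13931 and 5383 UMIs for B16-Ova, and at 10614 and 4916 UMIs for MC38-Ova. The core members summed to 2347 against 472 CPM in B16-Ova and 1342 against 854 CPM in MC38-Ova. In Treg and CD4 cells the direction turned without matching, with median log2 differences of 0.99 and 1.07. There 47 and 43 of 49 members were above 0, and none was called. Positive CD8 cells of B16-Ova had a median L-Pha of 877 UMIs against 422 in other cells and against 862 in others of the same RNA decile. In MC38-Ova these values were 484, 357 and 473.

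**Figure D5:**
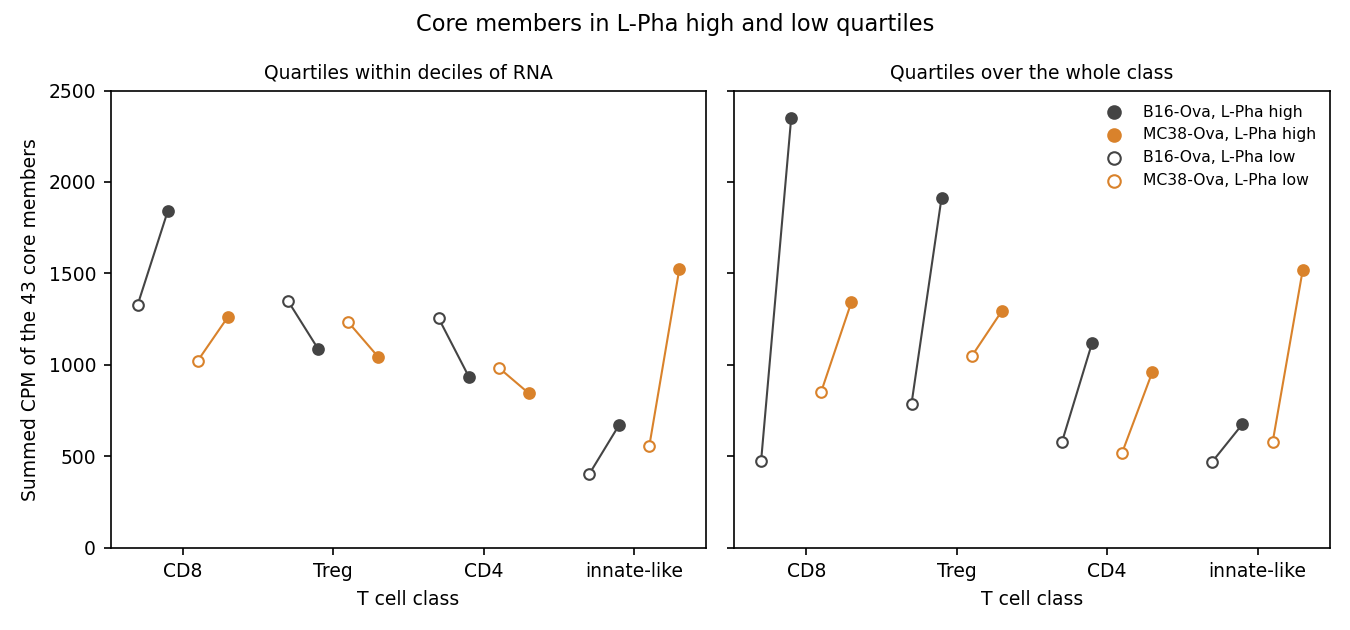
Summed CPM of the 43 core members (y axis) in the low (open) and high (filled) quartile of the L-Pha tag, for 4 classes and 2 tumours, with quartiles taken within deciles of RNA (left) or over the whole class (right). In B16-Ova CD8 cells the gap shrinks from 472 and 2347 CPM without matching to 1330 and 1842 with it, and in Treg and CD4 cells the slope turns downward.

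Within deciles of RNA content, PD-1 high CD8 cells had slightly less of the set. The median PD-1 tag was 33 UMIs in the high and 11 in the low group of B16-Ova, and 31 and 12 in MC38-Ova. Against PD-1 low cells 48 of 50 members were below 0, with a median log2 difference of -0.40 against -0.01 over all genes, and 2 fell and none rose, where 1.39% of all genes fell and 2.31% rose (3.7% together). They were Plk1 (-0.86 ± 0.21, edgeR adjusted p = 0.0348) and Cdca3, an adaptor that triggers mitotic entry (-0.64 ± 0.16, adjusted p = 0.0478). Plk1 stood at 13.0 against 22.2 CPM in B16-Ova and, in MC38-Ova, 7.95 against 14.6, and Cdca3 at 36.5 against 51.3 and 17.8 against 29.8. Both calls were lost with DESeq2, with stricter hashtags, without the RNA-richest decile of cells and without the cells that held other cells' markers. Without the RNA-richest decile the 1 member called was Cenpa, which rose, where 7.8% of all genes were called. The median log2 difference was then -0.09, with 15 of 41 members above 0. Without RNA matching both genes had positive differences of 0.49 and neither was called, while 3 members rose (Cdca8, Cenpa and Cks1b) and none fell. Of all genes 5.1% were called there.

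The PD-1 difference was larger in MC38-Ova, which was not tested. There the core members summed to 819 against 1218 CPM and 49 of 51 members were lower in PD-1 high cells, while in B16-Ova the sums were 1605 and 1665 CPM. The positive shares were 5.44% of 607 against 9.72% of 648 cells in MC38-Ova and 14.8% of 445 against 13.3% of 437 in B16-Ova. Cenpa went against the rest and was higher in PD-1 high cells of both tumours, with 210 against 146 CPM in B16-Ova and, in MC38-Ova, 150 against 133 (log2 difference 0.31 ± 0.14, edgeR adjusted p = 0.289). Of the brakes, Cdkn1a (0.56 ± 0.12, adjusted p = 0.0239) and Cdkn2a (1.26 ± 0.27, adjusted p = 0.0218) rose in PD-1 high CD8 cells by the same test.

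Tim-3 gave no called member in CD8 cells. By edgeR 0 of 48 passed, where 3.01% of all 9642 genes did, 9 had an unadjusted p under 0.05 and DESeq2 called none. The median log2 difference was -0.16, with 10 of 48 above 0. Without the RNA-richest decile it was -0.002, with 19 of 38 above 0. The median Tim-3 tag was 34 UMIs in the high and 13 in the low group of B16-Ova, and 33 and 14 in MC38-Ova. Cenpa was the highest of the 6 centromere genes in estimate, at 222 against 150 CPM in B16-Ova and 170 against 128 CPM in MC38-Ova (0.47 ± 0.12, edgeR adjusted p = 0.0551). In Treg, CD4 and innate-like cells no member passed by edgeR for PD-1 (0.0822%, 0.103% and 0.308% of all genes passed) or Tim-3 (0.239%, 0.135% and 0.0622%), with 3 to 20 unadjusted p-values under 0.05 per comparison and no DESeq2 call. The lowest and highest medians were -0.54 in Treg for Tim-3, with 2 of 48 members above 0, and 0.21 in innate-like cells for PD-1, with 33 of 50.

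Outside the members and the S-phase and other mitosis lists, the genes whose levels followed positive cells most closely were histone and division genes. Over all class cells, among genes with at least 500 UMIs, Hist1h2ap had the highest ratio of CPM in positive cells to the others (519 against 16.1, a ratio of 32.3). Esco2, which joins sister chromosomes (30.7), and Shcbp1, a midbody protein (30.4), followed, then Fbxo5, an inhibitor of the anaphase-promoting complex (22.5), the spindle pole gene Aspm (19.9), Hist1h2ak (18.1), Hist1h2ae (15.9), the kinesin Kifc1 (14.5), Hist1h1a (13.1) and Hist1h1d (13.1). Fbxo5 had been listed among the brakes of the cell cycle. Histone genes of 1 cluster are near-identical, so the counting may have split reads between copies and their single values are uncertain. As the positive cells were chosen by the members, these ratios describe those cells and were not tested.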

How the data were processed

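RNA and tag counts came from 1 capture of tumour T cells in the 10x 5′ assay. In the matrix deposited by the authors each gene and barcode has a raw UMI count, with the 3 antibody and lectin tags and 2 hashtags beside the genes. Per the submitters' processing notes, Cell Ranger 3.1.0, R 3.6.1, Seurat 3.1.0 and mm10 were used, and the matrix header names software version 3.0.2. The counting parameters are not given in the sources used here, and receptor sequences were not used here. Because 1 pool stands for each tumour, class and tag tests measure the spread between sums of cells from the same 2 pools, which are not independent animals.

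Barcodes with at least 500 genes, at most 10% mitochondrial counts and a hashtag of at least 150 UMIs and 3 times the other were kept, and cells were classed by raw marker UMIs. Of 18429 barcodes that passed on genes and mitochondrial counts, 3437 had no single hashtag and were left out. This takes out doublets between tumours where both hashtags are at similar levels. No doublet caller was run. Of the rest, 6195 cells had no class. UMIs were summed per class and tumour and tested with edgeR 4.0.16 (quasi-likelihood, filterByExpr, TMM), adjusted by Benjamini-Hochberg over all genes. DESeq2 1.42.0 was an alternative. Class fits had the tumour as a block, and tag fits had a block for each class and tumour and 4 residual degrees of freedom before pooling over genes. Between tumours, CPM ratios carry exact conditional 95% intervals, and differences of shares carry intervals combined from those of each share. All intervals cover counting error only. Those of CPM ratios treat each UMI as independent and leave out the spread between cells. On simulated counts over 11188 genes the CD8 against CD4 fit recovered 30%, 64%, 80% and 88% of genes changed 1.5-, 2-, 3- and 4-fold.

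The members and lists were chosen with earlier results of these data known. Named genes are the up to 4 members of a role with the most UMIs, the up to 5 past the threshold with the largest change in each direction, members that went against their role, up to 3 genes by level and 3 by change of each other list, and the 10 genes most like the set. Further called genes, and members given by the range of their levels, were added after their values were seen.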

Additional observations from a re-analysis of the deposited data

Results flagged for a closer look

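The core members together had opposite tumour differences in 2 classes. The ratio of summed CPM, MC38-Ova over B16-Ova, was 0.666 in CD8 cells and 1.84 in innate-like cells. These ratios come from 1 pool per tumour, and the difference between the classes was not tested.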

How the results depend on the processing

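For CD8 against CD4 cells the 3 called members became 20 with no filter on low counts, 5 with DESeq2, 20 without the RNA-richest decile, 11 in cells thinned to 3000 UMIs and 7 without cells holding other cells' markers. Of all genes 7.34%, 6.63%, 15.7%, 9.65% and 13.7% were called under these settings, in that order. For Treg the 1 called member became 4 with no filter, 6 without the top decile and 3 when thinned, and for innate-like cells the 1 became 2, 8 and 4, and 0 with stricter hashtags. Of all genes 3.92%, 8.02% and 7.36% were called for Treg. For innate-like cells the shares were 7.32%, 15.6%, 13% and 6.69%, and of the 8 members 7 fell and 1 rose. The 0 called for L-Pha became 21 in CD8 cells without RNA matching, where 5.4% of all genes were called. It became 1 with no filter, 5 without the top decile and 1 without other cells' markers in Treg, 2 with no filter, 1 with DESeq2 and 4 without other cells' markers in CD4 cells, and 8, 1 and 1 in innate-like cells under those 3 settings. Of all genes 1.39%, 4.22% and 1.43% were called in Treg and 0.599%, 0.24% and 0.611% in CD4 cells. In innate-like cells 0.506%, 0.167% and 0.12% were. For PD-1 in CD8 cells the 2 that fell became 11 that fell with no filter, 1 that rose without the top decile, 3 that rose without RNA matching, and 0 with DESeq2, with stricter hashtags and without other cells' markers, and Plk1 (0.49) and Cdca3 (0.49) changed sign without RNA matching. In the order of these counts, 4.15%, 7.8%, 5.1%, 1.14%, 6.61% and 6.96% of all genes were called. For Tim-3 the 0 became 1 with no filter, 1 with stricter hashtags, 1 without the top decile, 2 without other cells' markers and 4 without RNA matching. The shares of all genes called were 2.28%, 5.74%, 7.1%, 6.32% and 4.25%. Between tumours, thinning gave 12 members past 1.5-fold in CD8 (32 without it), 3 in Treg (5), 0 in CD4 (1) and 2 in innate-like cells (15), with fewer members at 100 UMIs. After thinning 2.72%, 3.57% and 2.32% of all genes were lower in MC38-Ova in CD8, Treg and CD4 cells. In innate-like cells 3.15% were higher. Without the top decile there were 2 in Treg and 3 in innate-like cells, with stricter hashtags 7 in innate-like cells, and with a minimum of 50 UMIs 2 in CD4 and 26 in innate-like cells. In the same order and direction, 3.73%, 2.99%, 5.4%, 3.26% and 4.7% of all genes were past the limit. The CD8 difference in positive cells was -6.73 points when thinned to 5000 UMIs. The cause of these changes was not tested. The setting without other cells' markers was chosen after seeing the data. The labels give no replicate numbers, the tumour was a block in the fits, and leaving out a tumour leaves no residual degrees of freedom.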
